A study of Mus musculus with 24 samples.

Results

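Heat shock chaperone genes were followed through the first 3 days after status epilepticus (SE) in the CA1 region of the mouse hippocampus. They were taken as the 10 rows of the deposited count table whose GENCODE symbol was Hspa1a, Hspa1b, Hspa8, Hsph1, Hsp90aa1, Dnajb1, Bag3, Hspb1, Cryab or Hsf1. These are 10 of 18647 genes in the table, and all 10 passed the filter on low counts that left 18153 genes for testing. The measurement was poly(A) RNA-seq of 24 libraries in 8 groups of 3.

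Adult C57Bl/6N mice, at least 60 days old, were given scopolamine methyl nitrate (1 mg/kg) and then pilocarpine (335 mg/kg), a muscarinic agonist that provokes prolonged seizures, and only animals in which SE developed entered the SE groups, taken 6, 12, 24, 36 or 72 h later. Control mice (Ctr) received saline in place of pilocarpine and were taken at 12, 36 and 72 h. Diazepam (4 mg/kg) was given to both, in SE mice 40 min after onset, so scopolamine and diazepam are common to all groups. Of the drugs given, only pilocarpine differed. The groups differ in other ways too: SE mice were selected for SE, and SE 6 h and SE 24 h have no control of their own time. The range of label numbers, described below, also differs between groups. CA1 was cut by hand from slices and holds neurons, glia and vessels together, so a change in a gene cannot be told apart from a change in the share of the cells that express it. Summed over the 10 neuron markers, the control libraries held 11600 to 18500 CPM (counts scaled to the size of the library, with TMM factors), with Camk2a as the most abundant marker in each of the 9. In the SE groups the sum was 12000 ± 1640, 9810 ± 737, 9570 ± 1030, 9580 ± 514 and 8800 ± 220 CPM from the earliest to the latest time (SD, n = 3). Of the 10 markers, 0, 2, 2, 3 and 3 were called lower than control by the test described below and 0, 1, 1, 1 and 0 higher. Of 10 vascular markers, 3, 4, 6, 4 and 3 were called higher at the same times and 2, 1, 0, 0 and 0 lower, with sums of 539 to 653 CPM in the means of the SE groups and 417 to 479 CPM in those of the controls. The part of either in the chaperone values was not tested.

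Chaperones bind proteins that have lost or not yet reached their fold. The HSP70 proteins work in an ATP cycle that is started by J-domain partners such as DNAJB1 and closed by nucleotide exchange factors such as HSPH1 and BAG3, HSP90 takes over later folding steps, and the small heat shock proteins hold unfolded clients until HSP70 can act on them. Heat shock factor 1 (HSF1) is held inactive by chaperones in unstressed cells; when unfolded proteins draw the chaperones away, it forms trimers and binds inverted repeats of the letters GAA, called heat shock elements, before its target genes. In brain, the inducible HSP70 is a long-used marker of stressed neurons, and the small heat shock proteins HSPB1 and αB-crystallin are well known from glia.

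The bases before the start of 3 members are given because they show the element and because 2 of the genes are near copies. RefSeq promoter entries were matched for 6 of the 10 members (Hspa1a, Hspa1b, Hspb1, Hsph1, Dnajb1 and Bag3), and each was placed on the GRCm39 genome by an exact match. The 250 bases before the RefSeq start read, 5′ to 3′ on the gene's strand and with the letters GAANNTTC (N for any base) in capitals:
Hspa1a: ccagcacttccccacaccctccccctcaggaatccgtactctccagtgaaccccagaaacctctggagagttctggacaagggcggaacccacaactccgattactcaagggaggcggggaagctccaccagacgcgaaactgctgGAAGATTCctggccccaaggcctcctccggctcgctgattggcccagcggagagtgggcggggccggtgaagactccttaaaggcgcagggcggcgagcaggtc
Hspa1b: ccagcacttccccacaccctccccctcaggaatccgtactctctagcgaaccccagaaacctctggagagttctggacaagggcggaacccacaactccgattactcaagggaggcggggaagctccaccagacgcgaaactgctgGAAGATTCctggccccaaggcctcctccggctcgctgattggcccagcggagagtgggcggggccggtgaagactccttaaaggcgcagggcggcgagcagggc
Hspb1: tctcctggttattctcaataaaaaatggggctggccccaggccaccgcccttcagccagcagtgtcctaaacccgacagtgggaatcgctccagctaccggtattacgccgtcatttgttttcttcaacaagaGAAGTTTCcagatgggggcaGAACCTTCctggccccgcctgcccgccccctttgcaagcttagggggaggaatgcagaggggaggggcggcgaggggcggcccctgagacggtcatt

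These stretches lie at chr17:35191133-35191382 on the minus strand for Hspa1a, at chr17:35178215-35178464 on the minus strand for Hspa1b and at chr5:135916523-135916772 on the plus strand for Hspb1. The Hspa1a and Hspa1b stretches were identical at 247 of 250 bases, and in both the element began 104 bases before the start. Hspb1 held the letters at 117 and at 97 bases before its start. Among 32851 RefSeq promoter entries cut in the same way, 6.69% held GAANNTTC (which reads the same on both strands) within the 250 bases, and 12.8% held it or its other phase, TTCNNGAA. Hsph1 held TTCNNGAA at 33 bases before the start of its first entry. After the start it held TTCNNGAA at base 37 and GAANNTTC at base 42, which overlap, and 0.603% of the entries held such an overlapping pair in the window that also takes in the 50 bases after the start. In Bag3 the letters GAANNTTC stood after the start, at base 43, and the window of Dnajb1 held neither form. A match is a description of letters, and binding of HSF1 was not measured here.

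The transcripts of Hspa1a and Hspa1b also share much of their length: of all windows of 100 bases, 47.1% of those of Hspa1a and 49.9% of those of Hspa1b occur in the other gene. Reads from these stretches fit both genes and are not counted for either by the counting program at its default setting, so the values of both genes rest on the stretches in which they differ and understate their RNA. The split of reads between the pair is uncertain for the same reason. Reads were counted without regard to strand, and genes on the opposite strand overlap 1856 of the 4400 exon bases of Cryab (among them Hspb2), 3008 of 9999 of Hsf1 (Bop1 and Dgat1) and 564 of 2967 of Hspa1a. They overlap 486 of 2619 in Bag3, 1245 of 11113 in Hsph1 and 89 of 4603 in Hsp90aa1. For Hspa8 it is 410 of 8680, small nucleolar RNAs on its own strand included. No exon base of Hspa1b, Hspb1 or Dnajb1 is shared.

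In control CA1 the members spanned a wide range of levels. Per kilobase of the canonical transcript, and over the 8 control libraries left when the second Ctr 72 h library (described next) is set aside, Hspa8, the constitutive HSP70 of the cytosol, stood highest at 364 ± 52.2 CPM per kb (SD, n = 8). Hsp90aa1, the inducible form of cytosolic HSP90, followed at 190.2 ± 18.8, Hsph1 at 52.1 ± 8.45, Cryab at 28.7 ± 3.88, Dnajb1 at 16.04 ± 1.71 and Hsf1 at 10.4 ± 0.996 CPM per kb (SD, n = 8). The lowest 4 were Bag3 with 4.46 ± 0.670, Hspb1 with 4.37 ± 0.843, Hspa1b with 2.17 ± 1.03 and Hspa1a with 0.929 ± 0.383 CPM per kb (SD, n = 8). Bag3 and Hspb1 did not differ beyond their spread, and the 4 lowest genes at rest were the 4 with the largest log2FC at 6 and 12 h after SE.

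Before the comparisons, a pair of libraries stood apart in these genes. The second Ctr 72 h library held 42.6 CPM of Hspb1 and 75.0 CPM of Bag3, whereas the 8 other control libraries held 3.09 to 5.42 and 8.89 to 13.99 CPM. The same library held a summed 1870 CPM of 10 sensory ganglion markers, against 11.9 and 81.4 CPM in the other Ctr 72 h libraries, and none of the 10 markers was at 0 in it. In the third SE 12 h library, Hspa1a reached 178 CPM and Hspa1b 414 CPM, against 8.002 and 19.8 CPM of Hspa1a and 17.7 and 55.0 CPM of Hspa1b in the first and second libraries of that group. Its sensory ganglion sum was 16.4 CPM. Library totals ran from 2663936 counts (the third Ctr 72 h library) to 30133731, with a median of 13521590.

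**Figure D1:**
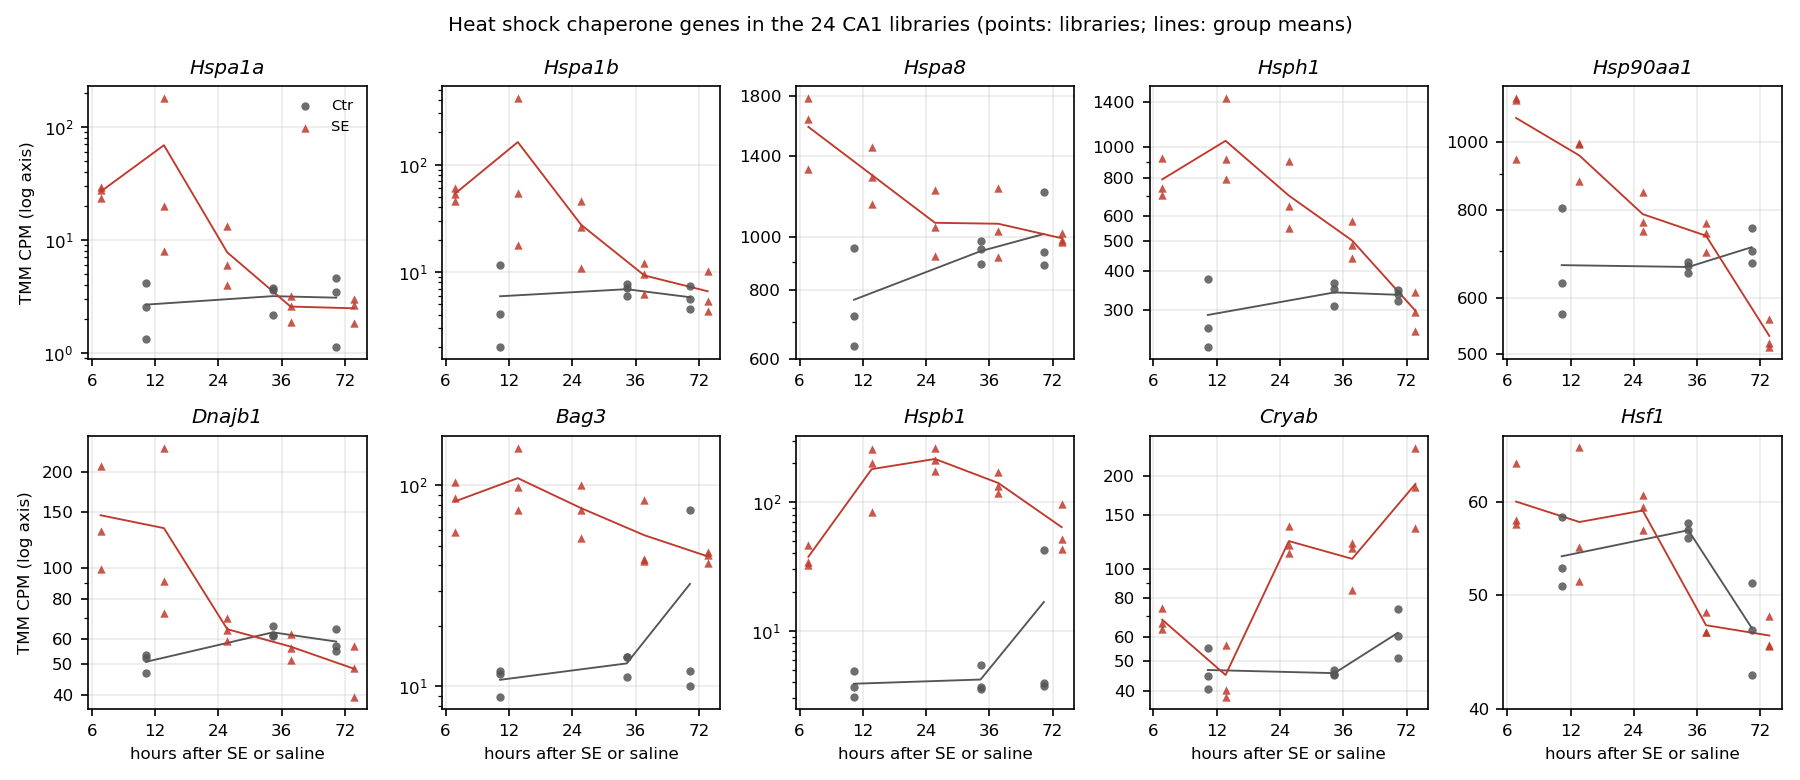
Level of each of the 10 genes in every library, as TMM-scaled CPM on a log axis, against the time after SE or saline in hours (grey circles, Ctr; red triangles, SE; lines join group means of 3 libraries). Hspa1a, Hspa1b, Dnajb1 and Hsph1 lay highest at 6 and 12 h, Hspb1 at 12 and 24 h, and Cryab at 72 h; the 1 high grey circle in the Hspb1 and Bag3 panels is the second Ctr 72 h library.

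SE was set against the control of the same time at 12, 36 and 72 h, and against the mean of the 3 control groups at 6 and 24 h, for which no control of the same time was taken. A gene was called when the adjusted p of edgeR's quasi-likelihood test was at most 0.05 and the log2FC at least 0.66 in size. At 6 h, 8 of the 10 members were called, all higher, where 22% of all genes tested were called (15.8% higher). At 12 h the count was 7 of 10 (25.2% of all genes, 13.9% higher), at 24 h it was 5 of 10 (24.1%, 14.9% higher), at 36 h 3 of 10 (21.6%, 12.7% higher) and at 72 h 3 of 10 (19.4%, 15.2% higher). No member was called lower at any time. The median log2FC of the 10 genes at these times was 1.32, 1.62, 1.20, 0.30 and −0.02, beside 0.06, 0.01, 0.04, 0.00 and 0.10 over all genes tested.

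**Figure D2:**
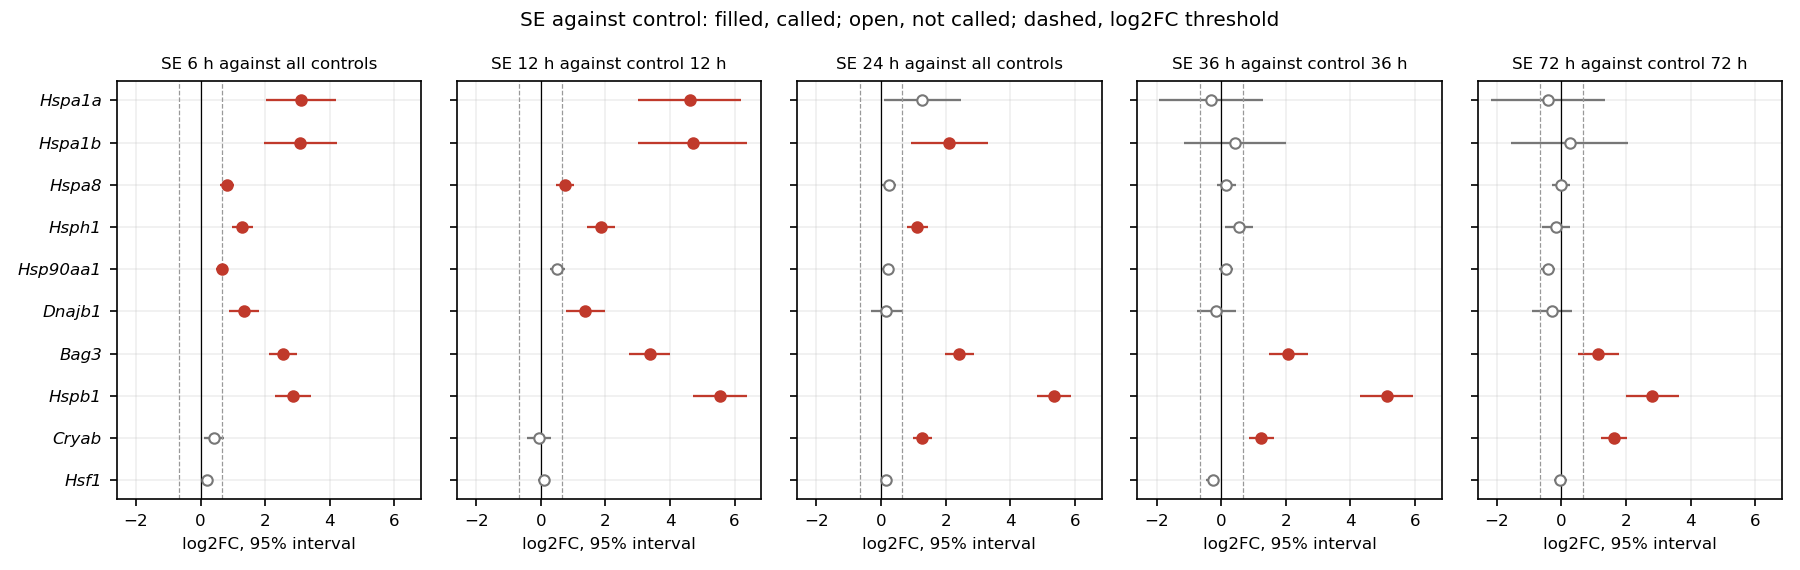
log2FC of SE against control for the 10 genes (rows) in the 5 comparisons (panels), with 95% intervals; filled points were called, open points were not, and dashed lines mark a log2FC of 0.66. There are 8 called points at 6 h and 3 at 36 and 72 h; Bag3 and Hspb1 are called at all 5 times and Cryab from 24 h.

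The inducible HSP70 genes were already higher at 6 h and were no longer called at 36 h. Hspa1a stood at 27.5, 23.3 and 29.0 CPM in the SE 6 h libraries, against 1.12 to 4.60 CPM in the 9 controls. Hspa1b stood at 53.7, 45.4 and 60.5 CPM at 6 h, against 2.00 to 11.7 CPM. Every SE 6 h library lay above every control for both genes, with a log2FC of 3.10 ± 0.55 for Hspa1a (s.e., adjusted p = 1.93e-04) and 3.09 ± 0.58 for Hspa1b (adjusted p = 3.19e-04).

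At 12 h the log2FC was 4.61 ± 0.82 for Hspa1a (s.e., adjusted p = 2.13e-04) and 4.71 ± 0.87 for Hspa1b (adjusted p = 2.97e-04), against Ctr 12 h levels of 1.32, 2.56 and 4.10 CPM and of 4.07, 2.00 and 11.7 CPM. All 3 SE libraries lay above all 3 controls, but the third, at 178 and 414 CPM, was far above the other two, and without it the log2FC was 2.35 (adjusted p = 0.00132) and 2.58 (adjusted p = 0.00274), below the values at 6 h. Without the third Ctr 12 h library, which held 11.7 CPM of Hspa1b, the log2FC of that gene was 5.76.

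By 24 h the group means of the pair lay below those at 6 and 12 h. Without the third SE 12 h library the log2FC from 12 to 24 h was −0.90 for Hspa1a and −0.44 for Hspa1b, and neither was called. Hspa1b, at 45.3, 10.9 and 26.3 CPM, was still called (log2FC 2.12 ± 0.60, s.e., adjusted p = 0.00812), although its second library lay within the control range and the call was lost without the first (log2FC 1.56, adjusted p = 0.0857). Hspa1a, at 13.2, 4.01 and 5.96 CPM, gave a log2FC of 1.27 ± 0.61 (adjusted p = 0.102), and 0.67 without the first library. Neither was called at 36 h, when Hspa1a stood at 3.19, 2.60 and 1.88 CPM and Hspa1b at 9.56, 6.23 and 12.0 CPM, nor at 72 h. The 95% interval of the log2FC at 72 h ran from −2.17 to 1.34 for Hspa1a, with 3 to 54 counts per library, and from −1.55 to 2.06 for Hspa1b.

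The partners of HSP70 were called at 6 and 12 h too, with smaller folds than Hspa1a and Hspa1b at those times. Dnajb1, the J-domain protein that hands clients to HSP70, stood at 99.6, 130.5 and 209 CPM at 6 h and 72.1, 90.8 and 237 CPM at 12 h, against 46.8 to 65.6 CPM in the controls. No SE library of these times overlapped the controls. The log2FC was 1.35 ± 0.24 at 6 h (s.e., adjusted p = 1.46e-04) and 1.39 ± 0.31 at 12 h (adjusted p = 0.00163), and 0.68 (adjusted p = 0.0185) at 12 h without the third library. From 24 h on, Dnajb1 lay between 39.6 and 69.8 CPM and was not called.

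Hsph1, an HSP110 protein that releases ADP from HSP70, stayed higher for longer. It stood at 925, 738 and 705 CPM at 6 h, 794, 919 and 1439 CPM at 12 h and 647, 550 and 903 CPM at 24 h, against 228 to 376 CPM in the controls. All 9 of these SE libraries lay above all 9 controls, and the log2FC was 1.30 ± 0.17 (s.e., adjusted p = 5.66e-06), 1.86 ± 0.22 (adjusted p = 3.34e-06) and 1.12 ± 0.17 (adjusted p = 2.17e-05). At 36 h the libraries, at 441, 579 and 484 CPM, still lay above the controls of that time (309 to 367 CPM), with a log2FC of 0.55 ± 0.22 that was not called (adjusted p = 0.0567). At 72 h Hsph1 was at 296, 256 and 342 CPM.

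Hspa8 and Hsp90aa1, the most abundant of the 10 genes, had smaller folds than the genes above at 6 and 12 h. Hspa8 stood at 1329, 1636 and 1783 CPM at 6 h against 635 to 1207 CPM in the controls, and rose by a log2FC of 0.82 ± 0.11 at 6 h (s.e., adjusted p = 1.52e-05) and 0.76 ± 0.15 at 12 h (adjusted p = 4.82e-04). Hsp90aa1 stood at 945, 1151 and 1144 CPM at 6 h against 570.2 to 805 CPM, with a log2FC of 0.67 ± 0.09 (s.e., adjusted p = 9.56e-06). That value is just over the threshold of 0.66 and fell under it when any 1 of 5 libraries was left out. At 12 h its log2FC was 0.52 ± 0.11 (adjusted p = 0.0014), under the threshold. At 72 h Hsp90aa1 stood at 512, 560.5 and 519 CPM, below all 9 controls, with a log2FC of −0.41 ± 0.11 that passed on p alone (adjusted p = 0.0103). For the paralogue Hsp90ab1, the constitutive cytosolic HSP90, the log2FC lay between −0.23 and 0.15 in the 5 comparisons, with no adjusted p under 0.143.

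Bag3, which couples HSP70 and the small heat shock proteins to autophagy, rose early and was still called at 72 h. It stood at 58.6, 104 and 86.2 CPM at 6 h, 97.8, 75.1 and 153 CPM at 12 h, 75.8, 54.4 and 101 CPM at 24 h, 43.1, 41.9 and 84.4 CPM at 36 h and 41.2, 45.2 and 46.6 CPM at 72 h. All 15 SE libraries lay above the 8 control libraries with 8.89 to 13.99 CPM. The log2FC was 2.56 ± 0.22 at 6 h (s.e., adjusted p = 4.42e-08), then 3.37 ± 0.32, 2.43 ± 0.22 and 2.07 ± 0.31 at the following 3 times, and 1.14 ± 0.32 at 72 h (adjusted p = 0.0115).

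The value at 72 h turns on the second Ctr 72 h library, whose 75.0 CPM exceeds all 3 SE 72 h libraries. Without that library the log2FC of Bag3 was 2.04 (adjusted p = 1.15e-05), and without the first Ctr 72 h library it was 0.49 and was not called, nor was it called without the third. The size of the late difference thus depends on which Ctr 72 h libraries are used.

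Hspb1, the small heat shock protein HSP27 (HSP25 in mice), gave the largest log2FC of the 10 genes from 12 h on. From 3.09 to 5.42 CPM in 8 controls, it reached 34.1, 46.3 and 32.5 CPM at 6 h, 200.5, 83.3 and 257 CPM at 12 h, 211, 175 and 262 CPM at 24 h, 133, 172 and 117 CPM at 36 h and 97.0, 43.5 and 51.3 CPM at 72 h. All 15 SE libraries lay above those 8 controls. The log2FC was 2.86 ± 0.28 at 6 h (s.e., adjusted p = 2.22e-07) and 5.55 ± 0.43, 5.36 ± 0.27 and 5.13 ± 0.42 at the following 3 times, which is 46.9-fold, 40.9-fold and 34.96-fold. At 72 h it was 2.81 ± 0.42 (adjusted p = 3.99e-05), 4.05 (adjusted p = 1.02e-05) without the second Ctr 72 h library and 2.04 without the first. Hspb1 was the only member with a further rise from SE 6 h to SE 12 h that was called (log2FC 2.25 ± 0.35, adjusted p = 0.00248), where 1.34% of all genes were called at the log2FC threshold of 1 used between SE times. With the range of label numbers described below as a factor, the value was 2.50 (adjusted p = 0.0526) and the call was lost.

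Sensory ganglion markers were raised in several SE libraries too. Their summed level was 355 CPM in the third SE 6 h library, 707 CPM in the first SE 12 h library, 922 CPM in the third SE 36 h library and 1019 and 550 CPM in the first and second SE 72 h libraries, and 12.5 to 63.6 CPM in the other 10 SE libraries. Over the whole list, 2, 4, 1, 2 and 0 of the 10 markers were called higher at the 5 times, where 15.8%, 13.9%, 14.9%, 12.7% and 15.2% of all genes were. The counts at 6, 24, 36 and 72 h are near or under that share. At 6 h the library with 355 CPM of the markers held 32.5 CPM of Hspb1 and 86.2 CPM of Bag3, against 34.1 and 46.3 CPM and 58.6 and 104 CPM in the other two. At 12 h the library with 707 CPM of them held 200.5 CPM of Hspb1 and 97.8 CPM of Bag3, between the other two (83.3 and 257 CPM, and 75.1 and 153 CPM). At 36 h the library with 922 CPM held the least Hspb1 (117 CPM, against 133 and 172 CPM) and the most Bag3 (84.4 CPM, against 43.1 and 41.9 CPM). At 72 h the library with 1019 CPM held the most Hspb1 (97.0 CPM), the library with 550 CPM held the least (43.5 CPM) and the third 51.3 CPM, with Bag3 at 41.2, 45.2 and 46.6 CPM. The part of ganglion RNA in these values was not tested. With a score of these markers in place of the fitted factor of unwanted variation, an alternative chosen after the data were seen, the counts of called members were 7, 6, 5, 3 and 2 at the 5 times; Bag3 at 72 h (log2FC 0.63, adjusted p = 0.301) was among the calls lost.

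**Figure D3:**
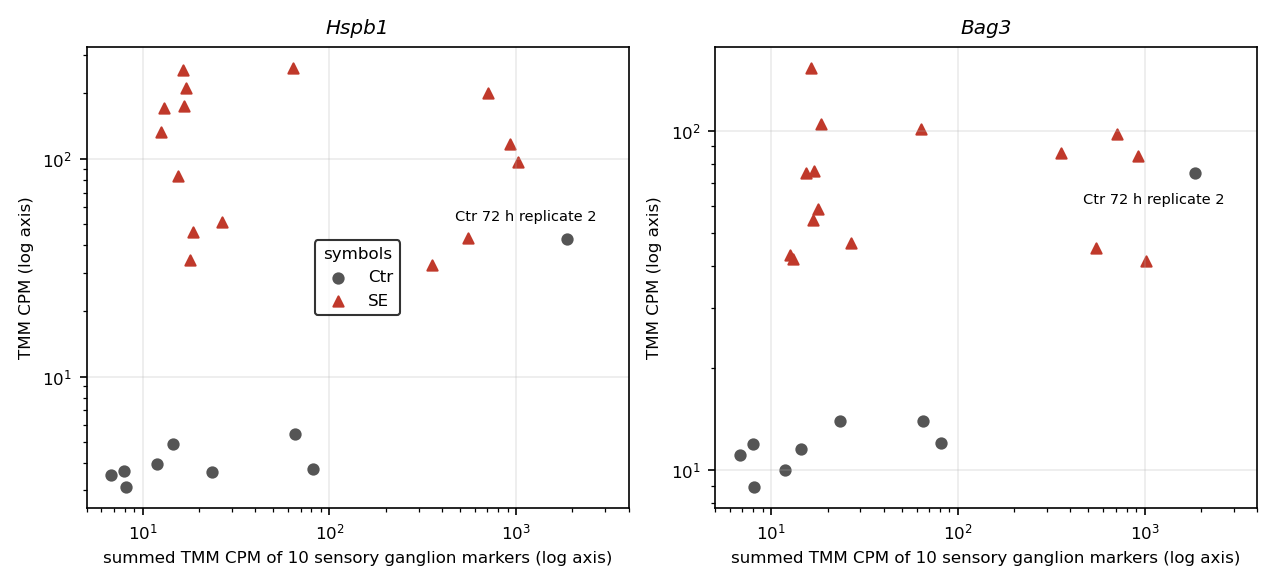
Level of Hspb1 (left) and Bag3 (right) in each library against the summed level of 10 sensory ganglion markers in the same library, both as TMM-scaled CPM on log axes (grey circles, 9 Ctr libraries; red triangles, 15 SE libraries). The second Ctr 72 h library lies apart from the 8 other controls on both axes, and the SE 36 h library with a marker sum of 922 CPM has the most Bag3 (84.4 CPM) and the least Hspb1 (117 CPM) of its group.

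Cryab, which encodes αB-crystallin, a small heat shock protein abundant in oligodendrocytes and astrocytes, was the late member. It stood at 74.2, 63.7 and 66.5 CPM at 6 h and at 40.3, 38.3 and 56.5 CPM at 12 h, and was called at neither time. The controls held 40.4 to 73.7 CPM, and at most 60.4 CPM without the second Ctr 72 h library, below all 3 SE 6 h libraries. The log2FC of 0.43 at 6 h passed on p (adjusted p = 0.0358) and not on size. At 24 h it stood at 112, 119 and 137 CPM, at 36 h at 117, 121 and 85.2 CPM and at 72 h at 184, 136 and 247 CPM, all above every control. The log2FC was 1.28 ± 0.15 at 24 h (s.e., adjusted p = 1.21e-06), 1.24 ± 0.20 at 36 h (adjusted p = 7.44e-05) and 1.63 ± 0.20 at 72 h (adjusted p = 5.32e-06). Of the astrocyte markers, 3, 4 and 4 of 10 were called higher at these 3 times, and 5, 4 and 0 lower. Their summed level was 13900 ± 760 CPM in SE 72 h against 5310 ± 420 CPM in Ctr 72 h (SD, n = 3). Gfap alone made up 7078, 8779 and 8594 CPM of the sums of 13060, 14560 and 14020 CPM in the SE 72 h libraries. Oligodendrocyte markers were called higher for 4, 0 and 2 of 10 at these times and lower for 0, 1 and 0. They summed to 4960 ± 2010, 2950 ± 803 and 5410 ± 2350 CPM in the SE groups (SD, n = 3), against 3890 to 4040 CPM in the means of the 3 control groups. At 36 h the median log2FC of the oligodendrocyte markers was −0.59, and Cryab was called higher. At 6 h, 5 of 10 were called higher with a sum of 6320 ± 199 CPM (SD, n = 3), and Cryab passed on p only. At 12 h the sum was 2990 ± 1420 CPM (SD, n = 3). Of the markers only Cnp was then called (log2FC −0.70), and Cryab was at −0.06. In the SE 12 h and SE 24 h groups the library with the most Cryab had the highest oligodendrocyte marker sum. In the SE 6 h, SE 36 h and SE 72 h groups it did not. Microglia markers were called higher for 5, 7 and 10 of 10 at 24, 36 and 72 h and lower for 1, 1 and 0. They summed to 739 ± 113, 939 ± 60.5 and 2330 ± 414 CPM (SD, n = 3), against 410 to 448 CPM in the means of the control groups. The part of these cell types in the late values of Cryab, Hspb1 and Bag3 was not tested. Reads in exon bases shared by Cryab and Hspb2 are counted for neither gene at the default setting of the counting program. The values of Cryab thus rest on reads outside the shared bases.

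Hsf1, the gene of the factor itself, stayed at 42.7 to 66.8 CPM in all 24 libraries. Its log2FC was 0.20 ± 0.08 at 6 h (s.e., adjusted p = 0.0622), with a 95% interval of 0.04 to 0.35, and 0.10, 0.17 and −0.03 after 12, 24 and 72 h. At 36 h all 3 SE libraries (46.5 to 48.4 CPM) lay below the 3 controls (55.9 to 57.6 CPM), a log2FC of −0.27 ± 0.10 that passed on p (adjusted p = 0.0477) and not on size. RNA levels do not report whether the HSF1 protein was active. Hsf2 was called at no time either, with its largest log2FC at 6 h (0.40 ± 0.10, adjusted p = 0.00283, under the size threshold).

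Between consecutive SE times, the step from 12 to 24 h had the most members called. Hspa1a (log2FC −3.19 ± 0.76, s.e., adjusted p = 0.0137), Hspa1b (−2.58 ± 0.78, adjusted p = 0.0431) and Dnajb1 (−1.05 ± 0.31, adjusted p = 0.0395) fell, and Cryab rose (1.45 ± 0.20, adjusted p = 2.96e-04), where 3.18% of all genes were called. Only the rise of Cryab was called when the third SE 12 h library was left out; the falls were then −0.90 for Hspa1a, −0.44 for Hspa1b and −0.34 for Dnajb1. Those 3 calls were also lost when the second or the third SE 24 h library was left out, and those of Hspa1b and Dnajb1 without the first SE 24 h or the second Ctr 72 h library. Mice taken 12 h apart can also differ in time of day, and no control was taken at 24 h. The part of time of day in this step was not tested. From 24 to 36 h no member was called (0.529% of all genes, edgeR quasi-likelihood test). From 36 to 72 h Hspb1 fell (−1.22 ± 0.34, adjusted p = 0.0261; 4.13% of all genes). This call was lost without the second SE 36 h, the second SE 72 h or the third SE 72 h library, and with no factor of unwanted variation (−1.13), the ganglion score (−1.52) or the label range described below (−1.14). The SE effect was also compared between the times that have their own control. It differed for 4 of 10 members between 36 and 12 h (3.38% of all genes), for 9 between 72 and 12 h (18.6%) and for Hspb1 between 72 and 36 h (4.81%). Cryab had the larger effect at the later time in both of the first 2 pairs, and each other member called had the smaller. Of 13 fits that left out 1 library, 5, 9 and 7 lost the calls of Hspa1a, Hspa1b and Hsph1 between 36 and 12 h. Cryab kept its call in all of them. The call of Hspb1 between 72 and 36 h was lost in 6 of 12 such fits. Fewer members differed in each pair of times with the label range described below as a factor. Between the control groups no member was called (0% of all genes between 12 and 36 h, 0.931% between 12 and 72 h and 1.97% between 36 and 72 h).

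**Figure D4:**
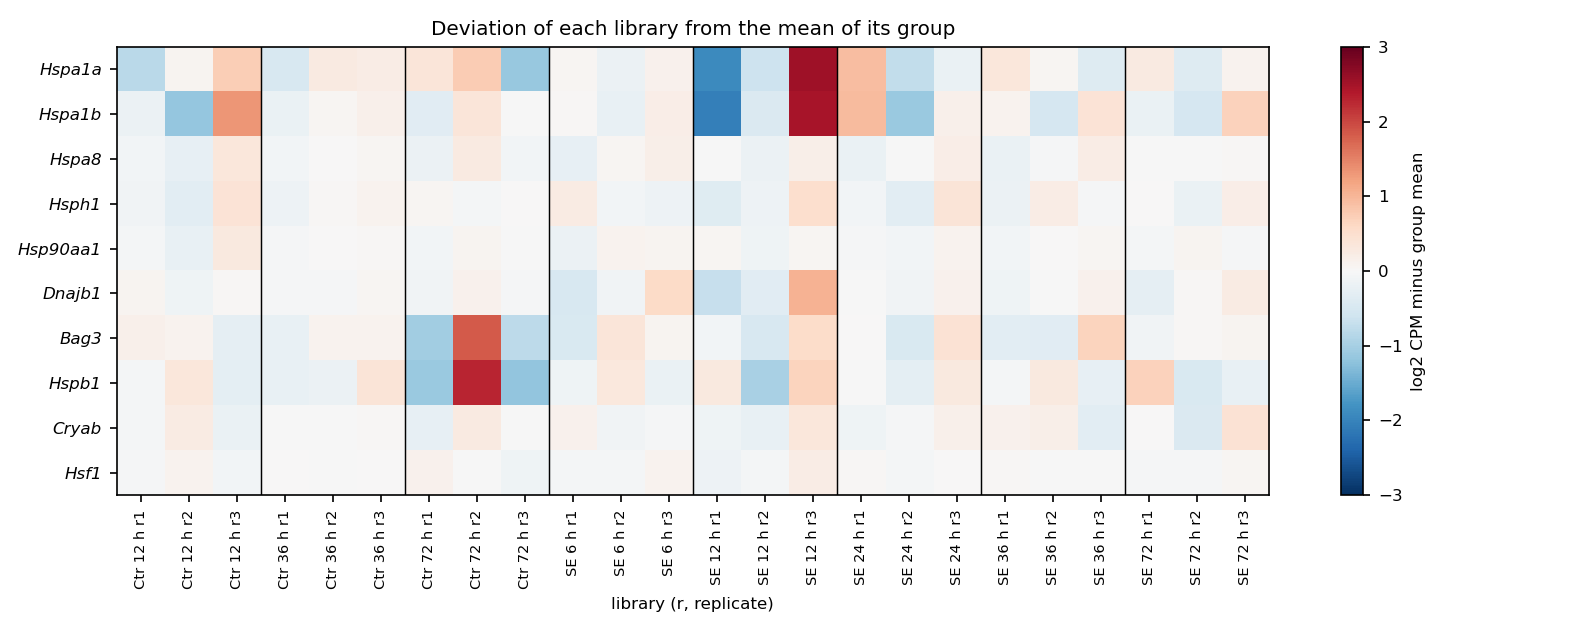
Deviation of each library (columns, grouped by group, r for replicate) from the mean of its own group in log2 CPM, for the 10 genes (rows); red is above and blue below the group mean. The third SE 12 h library is high for Hspa1a (2.54), Hspa1b (2.48) and Dnajb1 (1.03), and the second Ctr 72 h library for Hspb1 (2.28) and Bag3 (1.84).

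Libraries of 1 group differed from each other in a shared way for some members and not for others. The deviations of Hspa1a and Hspa1b from their group means went together over the 24 libraries (Pearson r = 0.81, and 0.69 over the 22 libraries left without the 2 that stood apart), as did those of Hspa8 and Hsp90aa1 (r = 0.87 and 0.88). Hspb1 and Bag3 gave r = 0.82 and 0.61, while Hspa1b and Hspb1 gave 0.14 and −0.13. These are descriptions over libraries that share depth and dissection, and Hspa1a and Hspa1b share sequence as well. Over the 8 group means, the genes most like Hspa1a among 7299 genes with a log2FC of at least 0.66 in size at any time were Plk3 (r = 0.995), Nts (0.988) and Ppan (0.987). The genes most like Hspb1 were B3gnt3 (0.993), Igfbp7 (0.993) and Fgf2 (0.992), those most like Bag3 were Rnf125 (0.994), Ece1 (0.992) and Fnip2 (0.989), and those most like Cryab were Rhog (0.980), Abca1 (0.977) and Apod (0.972).

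The other genes of the chaperone network were read from 10 lists. Of 4 small heat shock proteins tested besides Hspb1 and Cryab (of 7 listed), 2, 4, 4, 3 and 2 were called higher at the 5 times. Of all genes tested, 15.8%, 13.9%, 14.9%, 12.7% and 15.2% were called higher. Hspb6 (HSP20) went from 2.22 to 6.82 CPM in the 9 controls to 24.3, 19.9 and 14.8 CPM at 6 h and 85.8, 48.5 and 55.9 CPM at 24 h, and was still at 47.5, 60.9 and 46.3 CPM at 72 h. No SE library overlapped the controls, and its log2FC was 2.47, 3.45, 4.15, 4.27 and 3.68 at the 5 times. Hspb8 (HSP22), the small heat shock protein that binds BAG3, gave a log2FC of 1.44, 1.88, 1.96 and 1.32 from 12 h on, and like Hspb1 and Bag3 it was high in the second Ctr 72 h library (117.5 CPM, against 11.6 to 22.5 CPM in the other 8 controls). The others called, Hspb3 and Hspb7, named after their values were seen, lay under 7 CPM in every library.

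Chaperones of the endoplasmic reticulum (ER) had 2, 6, 5, 7 and 5 of 11 called higher at the 5 times in turn and none lower, where 15.8%, 13.9%, 14.9%, 12.7% and 15.2% of all genes were called higher. The count at 6 h is near that share. Hspa5 (BiP), the HSP70 of the ER, stood at 492, 901 and 1088 CPM at 6 h and 595, 831 and 850.1 CPM at 12 h against 208 to 313 CPM in the controls, with a log2FC of 1.75, 1.82, 1.09, 1.16 and 1.00 at the 5 times. Serpinh1 (HSP47), the collagen chaperone, gave 1.21, 1.82, 1.80, 2.19 and 1.26. The disulfide isomerase Pdia4 was called from 36 h only, at 1.06 and then 1.70, and Dnajc3, a J-domain partner of BiP, reached 1.06 at 72 h.

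The other lists are given by their calls, to be read against the shares of all genes called at the 5 times (22%, 25.2%, 24.1%, 21.6% and 19.4%). None of the 8 subunits of the chaperonin CCT, which folds actin and tubulin, and none of 8 further HSP70 exchange factors and ubiquitin ligase partners was called in any of the 5 comparisons (edgeR quasi-likelihood test); the median log2FC of the CCT subunits was 0.14, 0.44, 0.40, 0.26 and −0.04. On p alone 0, 7, 8, 4 and 2 of the 8 CCT subunits passed, with a log2FC at 24 h from 0.28 for Cct7 (adjusted p = 0.00233) to 0.60 for Cct3 (adjusted p = 8.83e-07), under the size threshold. Of 7 mitochondrial chaperones only Hspa9 (mortalin) was called, at 24 h (0.68). Among 11 J-domain proteins Dnajb5 was called at 6, 12 and 24 h (0.95, 1.30 and 0.79) and Dnaja4 at 12 h (0.76), while Dnajb14 fell at 6 h (−0.73) and Dnajc6, which uncoats clathrin vesicles with HSC70, at 12 h (−1.12). Of 8 HSP70 and HSP110 relatives Hspa4 rose at 6 h (0.70), Hspa12a fell at 6, 12, 24 and 36 h (−0.79, −1.24, −1.29 and −1.15) and Hspa2 fell at 36 h (−0.76), when Hspa1l, low in level and named after its values were seen, was called lower too. Of 12 genes of the HSP90 list Fkbp5, a glucocorticoid-responsive co-chaperone, was called at 6, 12, 24 and 72 h (0.72, 0.84, 0.76 and 0.83) and Unc45a at 6 h (0.69). Of 6 autophagy and ubiquitin partners of BAG3, Synpo2 fell at 24 h (−0.99) and rose at 72 h (1.07). In the HSF list of 5 tested genes only Hsf5 and Hsf2bp were called, both low in level and named after their values were seen.

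**Figure D5:**
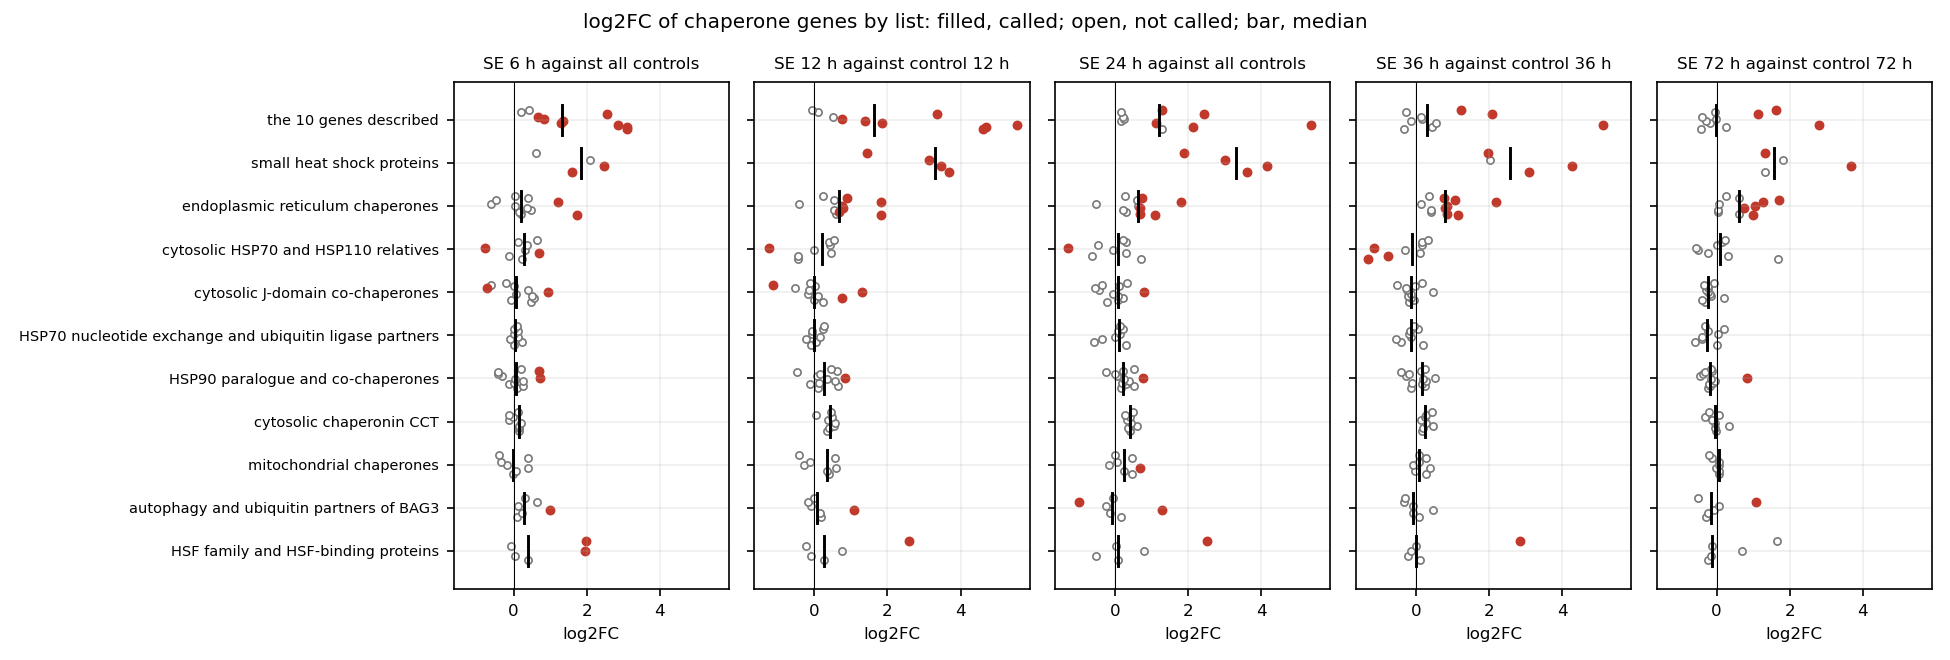
log2FC of SE against control for each tested gene of the 10 genes described and of 10 lists of related chaperone genes (rows) in the 5 comparisons (panels); filled points were called, open points were not, and black bars are medians. The medians of the small heat shock proteins run from 1.57 to 3.30 and those of the ER chaperones from 0.21 to 0.79, while the CCT and HSP70 partner lists hold no filled point.

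The numbers in the sample labels fall into 3 ranges (92 to 104 with 8 libraries, 109 to 122 with 11 and 162 to 169 with 5), and whether these mark batches is not stated. All 3 Ctr 72 h libraries are in the last range and no SE 72 h library is, and the first range holds all 3 SE 24 h libraries, 2 of the 3 SE 12 h libraries and no control, so at 24 and 72 h range and group cannot be told apart within a range. With the range as a factor, 8, 6, 4, 3 and 1 members were called at the 5 times, and at 72 h only Cryab (log2FC 1.35, adjusted p = 0.00471) was; Hspb1 was at 1.72 (adjusted p = 0.23) and Bag3 at 0.21 (adjusted p = 0.904).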

How the data were processed

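CA1 RNA of 24 mice libraries (8 groups of 3) had been sequenced as unstranded poly(A) paired-end libraries. Per the labels and the study's methods, the authors trimmed reads with Trim Galore 0.6.6, aligned them to GRCm39 with STAR 2.7.8a, handled alignments with SAMtools 1.10 and counted reads per GENCODE gene with HTSeq 0.13.5 without strand. The deposited values are these raw counts, not normalized, for 18647 genes. Symbols and positions came from a later GENCODE annotation of GRCm39, which matched 18552 gene identifiers (95 did not match).

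Counts were scaled by TMM and tested in edgeR 4.0.16 (R 4.3.3) by the quasi-likelihood F test, in 1 fit of all 8 groups with 1 factor of unwanted variation taken from the residuals of a first fit (RUVr). Genes were kept by filterByExpr (18153 genes), and p-values were adjusted by Benjamini and Hochberg over all of them. A call needed an adjusted p of at most 0.05 and a log2FC of at least 0.66 in size against control, and for differences of SE effects, or 1 between SE times. SE 6 h and SE 24 h were set against the same 9 control libraries, which the other comparisons use in part, so the comparisons are not independent. Standard errors are the log2FC divided by the root of F; 95% intervals are normal. CPM are TMM-scaled, and log2 CPM used a prior count of 2. The steps were tested on simulated data. Nothing in the labels says how the replicates of a group were raised or handled, so p-values measure the spread between these libraries.

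The members and lists were chosen with earlier results of these data known. Named from each list were up to 4 genes with the largest log2FC among those called whose mean log2 CPM reached 1, with Hsp90ab1, Hspa5, Hspa9 and Hsf2 added whatever their values, and for likeness the 3 most alike genes. Values of certain listed genes are not reported here. Cell type lists held 10 markers each. Alternatives were DESeq2 1.42.0, limma-voom (limma 3.58.1), other scalings and filters, no RUVr factor, the replicate number as a block, the range of label numbers, thinned counts, fits of the compared groups only, other thresholds and each library left out; a score of sensory ganglion markers and the omission of 2 libraries together were added after seeing the data.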

Additional observations from a re-analysis of the deposited data

Results flagged for a closer look

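The SE effect itself was compared between times through interaction terms in the same edgeR quasi-likelihood fit, and 14 differences passed (adjusted p of at most 0.05 and size of at least 0.66). Values are the log2FC against the matched control at the later time minus that at the earlier time.

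Between 12 and 72 h, 9 of the 10 members differed, where 18.6% of all genes did. The effect was lower at 72 h for Hspa1a (−5.02 ± 1.19, s.e., adjusted p = 0.0057), Hspa1b (−4.45 ± 1.23, adjusted p = 0.0145), Hspb1 (−2.74 ± 0.58, adjusted p = 0.00253), Bag3 (−2.22 ± 0.44, adjusted p = 0.00168) and Hsph1 (−2.03 ± 0.31, adjusted p = 2.13e-04). It was also lower for Dnajb1 (−1.67 ± 0.44, adjusted p = 0.0115), Hsp90aa1 (−0.93 ± 0.16, adjusted p = 6.09e-04) and Hspa8 (−0.76 ± 0.21, adjusted p = 0.0133), and higher for Cryab (1.69 ± 0.28, adjusted p = 4.31e-04). Leaving out 1 library moved the value to between −5.52 and −2.73 for Hspa1a, −5.52 and −2.31 for Hspa1b and −1.95 and −0.95 for Dnajb1, each smallest in size without the third SE 12 h library, and to between −3.50 and −1.46 for Hspb1 and −2.87 and −1.24 for Bag3, both smallest without the second Ctr 72 h library. The call was lost for Hspa1b without the former and for Hspb1 and Hspa8 without the latter. Without the third SE 12 h and second Ctr 72 h libraries together, 6 members differed, and Hspa1b (−2.15, adjusted p = 0.123), Hspb1 (−1.16, adjusted p = 0.226) and Hspa8 (−0.54, adjusted p = 0.0668) did not pass.

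Between 12 and 36 h, 4 members differed, where 3.38% of all genes did: Hspa1a (−4.93 ± 1.13, s.e., adjusted p = 0.0226), Hspa1b (−4.27 ± 1.15, adjusted p = 0.0415) and Hsph1 (−1.30 ± 0.31, adjusted p = 0.0254) had a lower and Cryab (1.30 ± 0.28, adjusted p = 0.0163) a higher effect at 36 h. Of 13 fits that each left out 1 library, 5 lost the call of Hspa1a, 9 that of Hspa1b and 7 that of Hsph1. The value ran from −5.45 to −2.67 for Hspa1a, from −5.33 to −2.16 for Hspa1b and from −1.54 to −1.01 for Hsph1, each smallest in size without the third SE 12 h library. Between 36 and 72 h, Hspb1 differed (−2.31 ± 0.57, s.e., adjusted p = 0.0239; 4.81% of all genes), a call lost in 6 of 12 such fits, with values from −3.08 without the first Ctr 72 h library to −1.03 without the second. The controls at 72 h, with the second library apart, enter every difference that involves 72 h. The RUVr factor was also largest in size in these controls, and the p-values measure only the spread left after it. With the label range as a factor, fewer members differed between every pair of times. Under limma-voom, fewer differed between 12 and 36 h, and the call of Hspb1 between 36 and 72 h was lost. The counts are given in the next section.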

How the results depend on the processing

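Over the 120 pairs of a member and a comparison, 2668 values were refitted under the alternatives: 2546 stayed on the same side of the threshold, 106 calls were lost, 16 were gained and none changed sign. A further count of 66 values, within the first number, changed sign without being called in either fit. The counts of called members at 6, 12, 24 and 36 h stayed within 1.5 times of those given, with ranges of 6 to 9, 6 to 8, 4 to 6 and 3 to 4 over all alternatives. At 72 h the count of 3 fell to 1 with the range of label numbers as a factor and was 2 to 3 when 1 library was left out; it was 3 without the second Ctr 72 h library.

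With the label range, the step from 6 to 12 h had 0 members called, the step from 36 to 72 h had 0, and the differences of SE effects had 1 (36 against 12 h), 5 (72 against 12 h) and 0 (72 against 36 h). For the step from 12 to 24 h (4 members), limma-voom gave 1, the fit of the compared groups 1, the omission of both libraries that stood apart 1, and leaving out 1 library 1 to 4. For the step from 36 to 72 h (1 member), the fit with no RUVr factor gave 0, the sensory ganglion score 0, no log2FC threshold 4, and leaving out 1 library 0 to 1. The difference between 36 and 12 h (4 members) had 2 with limma-voom, 2 with thinned counts and 1 to 6 when 1 library was left out. The difference between 72 and 36 h (1 member) had 0 with limma-voom, 2 in the fit of the compared groups, 2 with no log2FC threshold, 0 with both libraries omitted and 0 to 1 when 1 library was left out. Leaving out 1 library moved the difference between 72 and 12 h to 7 to 9. Between control groups, 0 to 2 members were called between 72 and 12 h and 0 to 2 between 72 and 36 h, the 2 being Hspb1 and Bag3 without the first Ctr 72 h library, and 1 was called between 72 and 36 h in the fit of the compared groups. The cause was not tested in any of these cases.

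Groups share replicate numbers, but deviations of same-numbered libraries correlated at −0.201 to 0.181 and not in every pair above 0.1, so they were not treated as pairs. With the replicate block the step from 12 to 24 h had 2 members called in place of 4 and the difference between 36 and 12 h had 5 in place of 4. Depth limits Hspa1a most: it had 3 counts in the third Ctr 72 h library.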
